A study of Homo sapiens with 6 samples.

Results

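The genes described here are 10 regulators of the G1 phase of the cell cycle: the D cyclins CCND1, CCND2 and CCND3, the E cyclins CCNE1 and CCNE2, the CDK inhibitors CDKN1B, CDKN2A, CDKN2B and CDKN2C, and the tumour suppressor RB1. They were chosen by name from the 39396 gene rows of the count table. All 10 had a row, and all 10 passed the filter on low counts among the 17078 genes tested. RNA was sequenced from cells labelled as RKO, a colorectal carcinoma line, with genotype WT in every library. The 3 olaparib libraries came from cells given the PARP inhibitor olaparib, and the 3 DMSO libraries from cells given the solvent DMSO. Dose and treatment length were not given in the sources used here. Whether replicates came from separate cultures is also unstated. The p-values here therefore rest on variation among libraries that may be technical.

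In G1, D cyclins activate CDK4 and CDK6, and E cyclins activate CDK2. These kinases phosphorylate RB1, which then releases the E2F transcription factors that drive genes of DNA replication. INK4 inhibitors (CDKN2A to CDKN2D) bind CDK4 and CDK6 and keep D cyclins from activating them, whereas CIP/KIP inhibitors (CDKN1A, CDKN1B and CDKN1C) bind whole cyclin-CDK complexes. RB1 and the INK4 and cyclin D genes are among those often altered in tumours.

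Library totals ran from 28715138 to 31387990 counts in olaparib and from 29544974 to 42423785 counts in DMSO. The 2 groups differed throughout the transcriptome. Of 17078 genes, 75.7% were called at an adjusted p under 0.05 by edgeR's quasi-likelihood test, with 35.4% higher and 40.3% lower in olaparib, and in 79.4% the CPM ranges of the groups did not overlap. CPM are read counts scaled to a common library size after TMM normalisation. The identity markers also differed between the groups. The 10 markers of the embryonic kidney line HEK293 were chosen with earlier results of these data known. Their split between the groups is therefore not an independent check of identity. Of these 10 markers, 9 were lower and 1 (PAX8) was higher in olaparib. Their summed level was 6.05 to 6.99 CPM in olaparib libraries and 566 to 878 CPM in DMSO libraries, and 6 of the 10 had no count in any olaparib library. Few markers of colorectal epithelium reached 1 CPM in either group, and this list was not one of RKO itself. Of 10 markers of colorectal epithelium, only KRT8, KRT18 and EPCAM in olaparib, and KRT8, KRT18 and CDX2 in DMSO, averaged 1 CPM or more. CDX1 was at 0 in all 6 libraries, and CDX2 and GPA33 were at 0 in every olaparib library. The summed level of that list was 806 to 1088 CPM in olaparib and 241 to 310 CPM in DMSO. Of 10 markers of fibroblasts, blood and endothelium, 3 were higher and 4 lower, and CD3E was at 0 in all 6 libraries. The largest changes were in CDH5, at 20.5 CPM in olaparib and 0.128 CPM in DMSO, and LUM, at 0.209 and 18.9 CPM. The list summed to 123 to 159 CPM in olaparib and 88.6 to 95.9 CPM in DMSO, and COL1A1 alone averaged 113 and 68.4 CPM. Treatment and a possible difference in cell identity cannot be told apart in this design, which holds for every comparison given here.

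Of the 10 genes, 4 were higher in olaparib (CCND1, CDKN1B, CDKN2B and RB1), 3 were lower (CCND2, CCNE1 and CCNE2), and 3 were not called (CCND3, CDKN2A and CDKN2C). That is 70.0% called, beside 75.7% of all genes, so the share called does not set the group apart. The median log2 fold change of the 10 was 0.16, against -0.09 over all genes, and the median of the absolute changes was 0.66 against 0.94. A change of at least 2-fold was called for 4 of the 10 (CCND1, CCND2, CCNE2 and CDKN2B), beside 47.0% of all genes. The CPM ranges did not overlap for 8 of the 10, beside 79.4% of all genes.

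**Figure D1:**
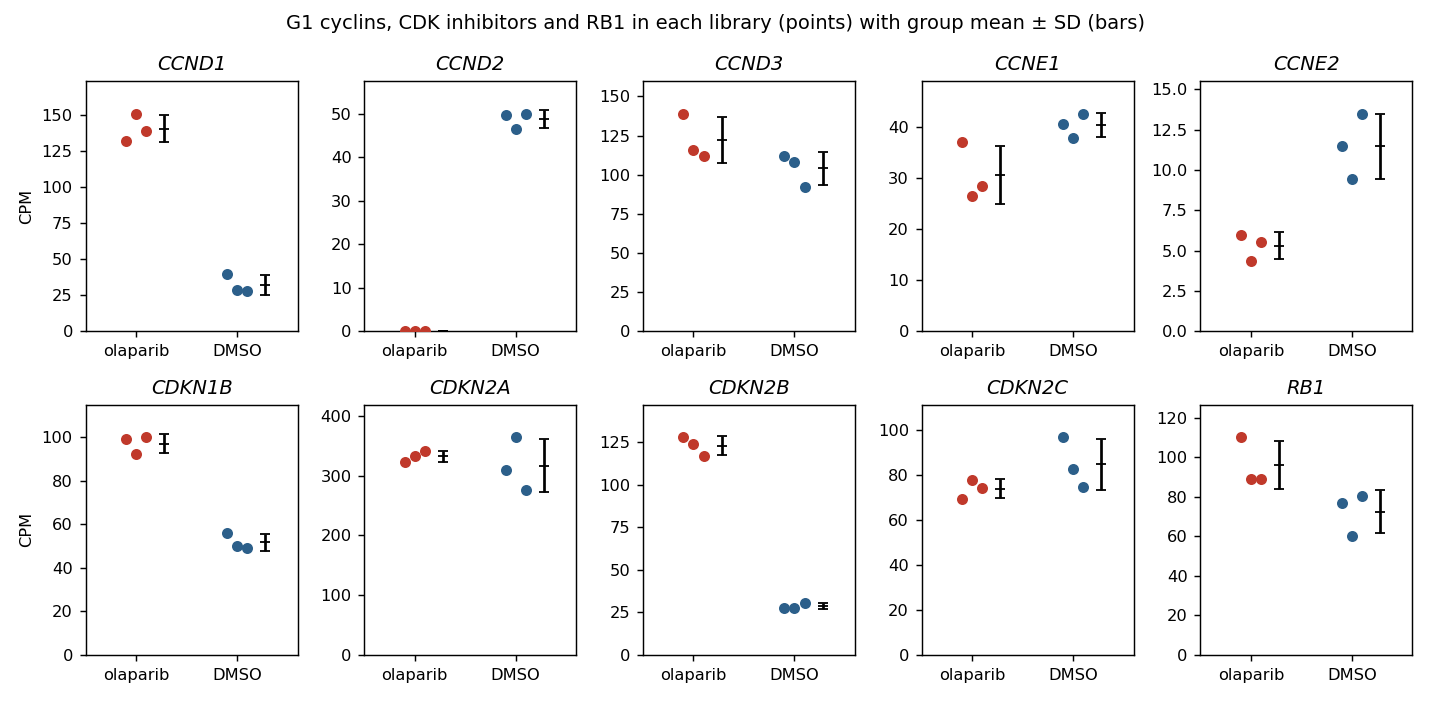
Level of each of the 10 genes in CPM, with 1 point per library, olaparib on the left and DMSO on the right of each panel, and bars for the group mean ± SD (n = 3). CCND2 lies at 0 in all 3 olaparib libraries, CCND1 and CDKN2B stand over 4-fold higher in olaparib, and the points of CDKN2A and CDKN2C overlap between the groups.

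Among the D cyclins, CCND1 and CCND2 moved in opposite directions and CCND3 was not called. CCND1, on chromosome 11 (69641087 to 69654474, hg38), had 132, 151 and 139 CPM in the olaparib libraries, against 39.7, 28.6 and 27.6 CPM in the DMSO libraries. All olaparib values lay above all DMSO values, and the highest DMSO value was that of replicate 1. The means were 141 ± 9.57 and 32.0 ± 6.75 CPM in olaparib and DMSO (SD, n = 3 each). By edgeR's test CCND1 was 4.40-fold higher in olaparib (log2 fold change 2.14 ± 0.14, SE, adjusted p = 5.34e-08). Of 4718 other genes whose mean CPM lay within 2-fold of that of CCND1, 6.44% changed by as much.

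CCND2, on chromosome 12 (4273772 to 4305350), had no count in any olaparib library. It held 2096, 1378 and 2212 counts in the DMSO libraries, which is 49.8, 46.4 and 50 CPM. The DMSO values lay within 4 CPM of each other, with a mean of 48.7 ± 1.99 CPM (SD, n = 3). Against a floor of 3 counts over the 3 olaparib libraries (0.0343 CPM), CCND2 was at least 1430-fold lower in olaparib, and edgeR called it (adjusted p = 3.35e-10). Floors cover counting error only. In a bulk library, fewer cells that express a gene and less RNA per cell cannot be told apart, but at 0 counts neither is visible at this depth.

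CCND3, the third D cyclin, on chromosome 6 (41934933 to 42050357), had 139, 116 and 112 CPM in olaparib libraries, against 112, 108 and 91.9 CPM in DMSO libraries. The lowest olaparib value and the highest DMSO value were equal when rounded. The log2 fold change was 0.24, with a 95% interval from -0.01 to 0.49, and edgeR did not call it (adjusted p = 0.0791). The interval includes 0 and a rise of 0.49 on the log2 scale.

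Levels per kilobase of exon allow the D cyclins to be set beside each other. CCND1 was at 29.1 ± 1.98 CPM per kb in olaparib and 6.62 ± 1.40 in DMSO, and CCND3 was at 21.1 ± 2.56 CPM per kb in olaparib and 17.9 ± 1.80 in DMSO. CCND2 was at 0 in olaparib and at 6.81 ± 0.278 CPM per kb in DMSO. The sum over the 3 genes was 51.4, 51.3 and 48.1 CPM per kb in olaparib libraries, against 34.4, 30.9 and 28.5 in DMSO libraries. Thus the summed D cyclin level was 1.61-fold higher in olaparib, without overlap between the groups. The make-up of that sum differed as well. CCND1 took 58.0 ± 4.21% of it in olaparib and 21.0 ± 2.53% in DMSO, whereas CCND3 took 42.0 ± 4.21% in olaparib and 57.1 ± 2.42% in DMSO. CCND2 took none of it in olaparib and 21.9 ± 2.29% in DMSO. By this measure CCND3 was the highest D cyclin in every DMSO library, and CCND1 in every olaparib library. The order depends on the lengths used, which merge all annotated exons of a gene. A gene whose main transcript is shorter than that is understated. In CPM, without division by length, CCND3 exceeded CCND1 in olaparib replicate 1 (139 against 132 CPM).

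**Figure D2:**
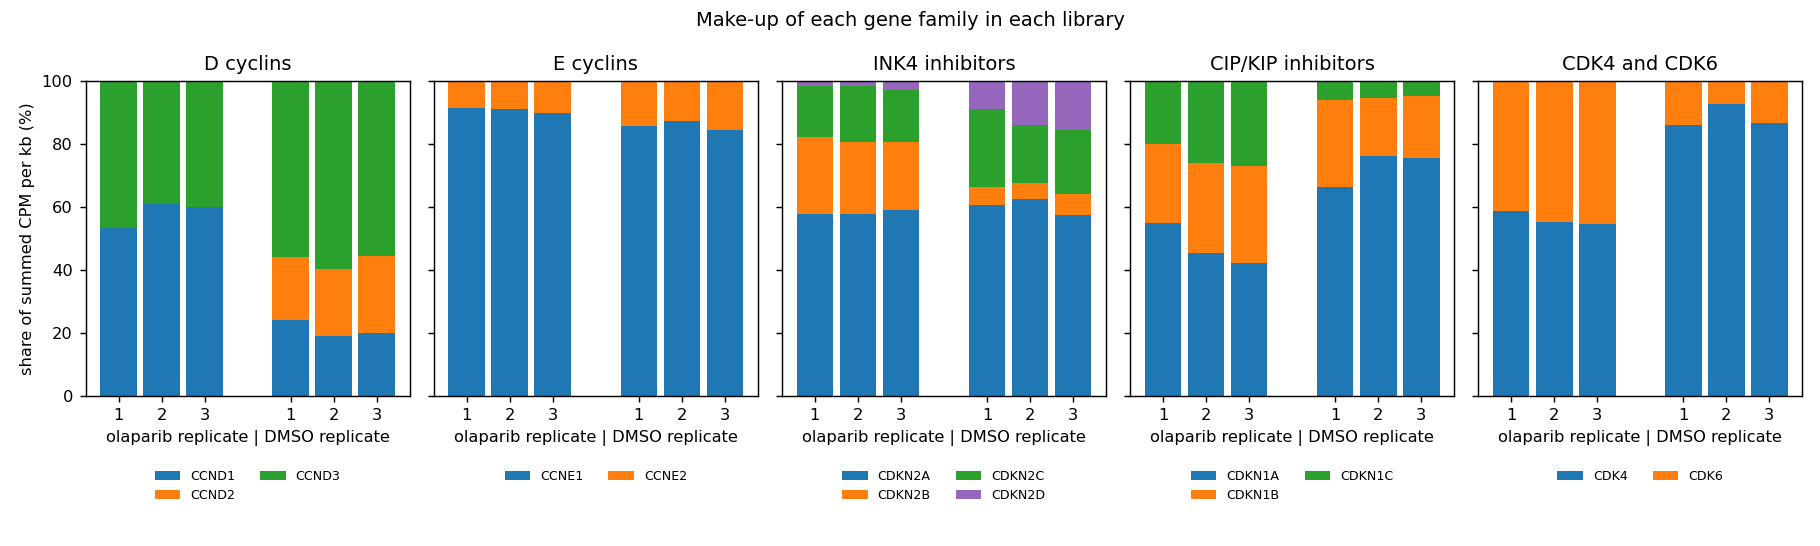
Share of each gene in the summed CPM per kb of its family (y axis, percent), with 1 stacked bar per library, olaparib replicates on the left and DMSO replicates on the right. CCND2 is missing from the olaparib bars, and CDKN2B, CDKN1C and CDK6 take a larger share in each olaparib library than in any DMSO library.

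Both E cyclins were lower in olaparib. CCNE1, on chromosome 19 (29811898 to 29824308), had 37.0, 26.4 and 28.4 CPM in olaparib libraries, against 40.6, 37.9 and 42.6 CPM in DMSO libraries. The values did not overlap, but olaparib replicate 1 came within 1 CPM of the lowest DMSO value. It fell 1.32-fold by edgeR's test (log2 fold change -0.40 ± 0.13, SE, adjusted p = 0.0163). Among 5259 other genes with a mean CPM within 2-fold of its own, 69.7% changed by as much or more. The CCNE1 log2 fold change was -0.30 without olaparib replicate 2, -0.33 without the third olaparib library and -0.37 without the third DMSO library. In each of these 3 edgeR fits the call was lost, with adjusted p-values of 0.0949, 0.0874 and 0.0529 in that order.

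CCNE2, on chromosome 8 (94879770 to 94896678), had 6.00, 4.38 and 5.55 CPM in olaparib libraries, against 11.5, 9.44 and 13.5 CPM in DMSO libraries, so that every olaparib value lay below every DMSO value. The means were 5.31 ± 0.839 CPM in olaparib and 11.5 ± 2.01 CPM in DMSO (SD, n = 3 each). It fell 2.17-fold (log2 fold change -1.11 ± 0.20, SE, edgeR adjusted p = 0.000252). At least as large a change was seen in 52.4% of 2991 other genes with a mean CPM within 2-fold of that of CCNE2. The annotated span of CCNE2 overlaps INTS8 and NDUFAF6, both on the other strand. The strand setting of the counting was not given in the sources used here, so reads cannot be separated where exons of such partners overlap. These partners meet only the ends of CCNE2, as INTS8 ends at 94881746 and NDUFAF6 starts at 94895767. INTS8 was not called, and NDUFAF6 was 1.55-fold lower in olaparib (adjusted p = 0.000617 in edgeR).

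Per kilobase of exon, CCNE1 was the main E cyclin in both groups. It took 90.8 ± 0.864% of the summed E cyclin level in olaparib and 85.9 ± 1.43% in DMSO. The sum was 15.9, 11.4 and 12.4 CPM per kb in olaparib libraries, against 18.5, 17.0 and 19.8 in DMSO libraries, without overlap. The CDK2 transcript, for the kinase partner of E cyclins, was at 92.9 ± 2.99 CPM in olaparib and 121 ± 5.66 CPM in DMSO, and fell 1.30-fold (edgeR adjusted p = 0.00274).

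The INK4 inhibitors CDKN2A and CDKN2B lie side by side on chromosome 9, and their counts behaved differently. CDKN2B encodes p15 and CDKN2A encodes both p16 and, from another start and reading frame, p14ARF, which acts on the p53 pathway. A count per gene symbol adds the transcripts of both CDKN2A starts. The set of RefSeq promoter windows used here (GRCh38.p14) covered 7 of the 10 genes. Those of the neighbouring INK4 genes are shown because one of them rose and the other did not, and that of CDKN1B because it rose with CDKN2B. Each run holds the 250 bases before a start, 5′ to 3′ on the gene's own strand, and capitals mark a GC box (GGGCGG) or a CCAAT box (CCAAT) on either strand. The CDKN2A windows lie at chr9:21995325-21995574 (p14ARF start) and chr9:21974858-21975107 (p16 start), that of CDKN2B at chr9:22009306-22009555, all on the minus strand, and that of CDKN1B at chr12:12717118-12717367 on the plus strand.
CDKN2A, p14ARF start: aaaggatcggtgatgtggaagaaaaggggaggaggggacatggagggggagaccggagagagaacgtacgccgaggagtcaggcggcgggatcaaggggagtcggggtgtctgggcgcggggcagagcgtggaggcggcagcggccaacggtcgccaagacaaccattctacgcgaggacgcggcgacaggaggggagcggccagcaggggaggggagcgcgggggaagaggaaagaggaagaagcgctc
CDKN2A, p16 start: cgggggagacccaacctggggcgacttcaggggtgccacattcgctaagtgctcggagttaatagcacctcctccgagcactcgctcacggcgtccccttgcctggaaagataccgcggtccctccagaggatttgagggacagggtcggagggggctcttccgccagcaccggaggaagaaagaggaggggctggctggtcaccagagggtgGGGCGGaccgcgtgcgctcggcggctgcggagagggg
CDKN2B: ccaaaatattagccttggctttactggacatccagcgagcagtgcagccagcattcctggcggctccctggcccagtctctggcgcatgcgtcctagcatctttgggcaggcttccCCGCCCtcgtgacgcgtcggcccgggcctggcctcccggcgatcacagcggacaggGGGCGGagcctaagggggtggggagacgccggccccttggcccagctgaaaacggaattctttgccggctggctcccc
CDKN1B: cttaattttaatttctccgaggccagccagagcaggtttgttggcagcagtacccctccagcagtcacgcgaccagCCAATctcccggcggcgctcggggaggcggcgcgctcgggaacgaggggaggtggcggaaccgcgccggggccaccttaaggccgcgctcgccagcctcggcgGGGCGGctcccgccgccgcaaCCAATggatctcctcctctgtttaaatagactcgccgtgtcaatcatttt

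The 250 bases before the p14ARF start held 0 GC boxes and 24 CpG, those before the p16 start 1 GC box and 20 CpG, those before the CDKN2B start 2 GC boxes and 18 CpG, and those before the CDKN1B start 1 GC box, 2 CCAAT boxes and 27 CpG. Whole windows, with 50 more bases after the start, were searched on both strands for the E2F forms TTCCCGC or TTCGCGC or TTGCCGC or TTGGCGC. Of 12 windows of the 7 genes, 1 held a match (CDKN2C), or 8.33%, beside 13% of all 35116 windows. CCND1, CCND2 and CCNE2 had no window in the set used here. The only RB1 window in that set (chr13:48476200-48476499, 0 CpG) lies inside the gene, which starts at 48303726. The starts of CCND1, CCND2 and CCNE2 and the first start of RB1 were thus not searched. A GC box was in 66.7% of the 12 windows and 45% of all windows, and a CCAAT box in 33.3% and 34.6%. E2F and GC box forms can overlap by some bases, and a match is a description of letters, not of binding.

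CDKN2B, from 22002903 to 22009363, had 128, 124 and 117 CPM in olaparib libraries, against 27.4, 27.6 and 30.6 CPM in DMSO libraries. The groups were far apart relative to their spread, with means of 123 ± 5.60 CPM in olaparib and 28.5 ± 1.83 CPM in DMSO (SD, n = 3 each). CDKN2B rose 4.30-fold (log2 fold change 2.11 ± 0.10, SE, edgeR adjusted p = 3.67e-09). Of 4994 other genes with a mean CPM within 2-fold of its own, 6.51% changed by as much. CDKN2B-AS1, a long noncoding RNA on the opposite strand that overlaps both CDKN2A and CDKN2B, also rose, with 25.3, 26.2 and 26.5 CPM in olaparib libraries, against 9.26, 8.39 and 11.5 CPM in DMSO libraries (2.67-fold, edgeR adjusted p = 2.42e-06). Where exons of CDKN2B and of this antisense partner overlap, their reads cannot be told apart without strand. Only whole gene spans were compared here, so the extent of exon overlap is not known.

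CDKN2A, from 21967753 to 21995301, had 323, 333 and 341 CPM in olaparib libraries, against 310, 364 and 276 CPM in DMSO libraries. The DMSO values lay on both sides of the olaparib values. The log2 fold change was 0.07, with a 95% interval from -0.19 to 0.33, and edgeR did not call it (adjusted p = 0.598). Of 1060 other genes with a mean CPM within 2-fold of its own, 95.3% changed by as much or more. The difference between the p16 and p14ARF transcripts is not visible in these counts.

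CDKN2C, which encodes p18, on chromosome 1 (50960745 to 50974633), had 69.5, 78.0 and 74.4 CPM in olaparib libraries, against 96.8, 82.8 and 74.7 CPM in DMSO libraries. The groups overlapped, with DMSO replicate 1 the highest of the 6 libraries. The log2 fold change was -0.20, with a 95% interval from -0.44 to 0.05, and edgeR did not call it (adjusted p = 0.132). Without DMSO replicate 3 it passed (log2 fold change -0.29, edgeR adjusted p = 0.0371). The fourth INK4 gene, CDKN2D, which encodes p19 and is not one of the 10, fell 5.80-fold, with 3.24, 3.33 and 5.55 CPM in olaparib libraries, against 15.9, 28.2 and 26.2 CPM in DMSO libraries (edgeR adjusted p = 2.34e-06).

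Summed per kilobase of exon, the 4 INK4 genes were at 129, 133 and 134 CPM per kb in olaparib libraries, against 118, 135 and 111 in DMSO libraries, with overlap. CDKN2A took the largest share of this sum in all 6 libraries, 58.2 ± 0.703% in olaparib and 60.1 ± 2.63% in DMSO. CDKN2B took 22.9 ± 1.42% in olaparib and 5.85 ± 0.880% in DMSO, and CDKN2D took 2.03 ± 0.633% in olaparib and 12.9 ± 3.48% in DMSO. The INK4 sum thus held more CDKN2B and less CDKN2D in olaparib at a total that overlapped between the groups.

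CDKN1B, which encodes p27, on chromosome 12 (12715058 to 12722371), had 99.2, 92.2 and 100 CPM in olaparib libraries, against 56.0, 50.2 and 49.0 CPM in DMSO libraries. All olaparib values lay above all DMSO values. It rose 1.88-fold (log2 fold change 0.91 ± 0.10, SE, edgeR adjusted p = 3.82e-06). Among 5018 other genes with a mean CPM within 2-fold of its own, 35.1% changed by as much or more. The transcripts of SKP2 and FBXW7 moved in opposite directions. SKP2, which marks p27 for degradation, rose 1.28-fold (edgeR adjusted p = 0.00939), and FBXW7, which marks cyclin E for degradation, fell 1.42-fold (edgeR adjusted p = 0.00361).

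The other CIP/KIP genes, CDKN1A and CDKN1C, differed in behaviour. CDKN1C, which encodes p57, rose 6.53-fold, with 68.9, 74.8 and 77.8 CPM in olaparib libraries, against 10.8, 12.7 and 10.5 CPM in DMSO libraries (edgeR adjusted p = 1.87e-09). CDKN1A, which encodes p21, had 233, 160 and 148 CPM in olaparib libraries, against 146, 224 and 205 CPM in DMSO libraries, and was not called. CDKN1A was the largest part of the CIP/KIP sum per kb in every library, at 47.4 ± 6.63% in olaparib and 72.7 ± 5.50% in DMSO. CDKN1B took 28.2 ± 2.81% in olaparib and 21.9 ± 4.94% in DMSO, with overlapping values.

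RB1, the pocket protein that holds E2F in check, on chromosome 13 (48303726 to 48599436), had 110, 89.2 and 89.1 CPM in olaparib libraries, against 76.9, 60.1 and 80.2 CPM in DMSO libraries. The groups did not overlap, and olaparib replicate 1 was the highest of all. RB1 rose 1.33-fold (log2 fold change 0.41 ± 0.13, SE, edgeR adjusted p = 0.0129), a call that edgeR lost without olaparib replicate 1 (log2 fold change 0.30, adjusted p = 0.0705). Of 4756 other genes with a mean CPM within 2-fold of its own, 67.8% changed by as much. The related pocket protein RBL2 (p130) rose 1.43-fold (edgeR adjusted p = 0.00149), and RBL1 (p107) was not called, at 47.1 ± 4.13 CPM in olaparib and at 40.8 ± 5.03 CPM in DMSO (SD, n = 3 each). RB1 took 45.5 ± 3.32% of the summed pocket protein level per kb in olaparib and 44.9 ± 1.55% in DMSO.

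**Figure D3:**
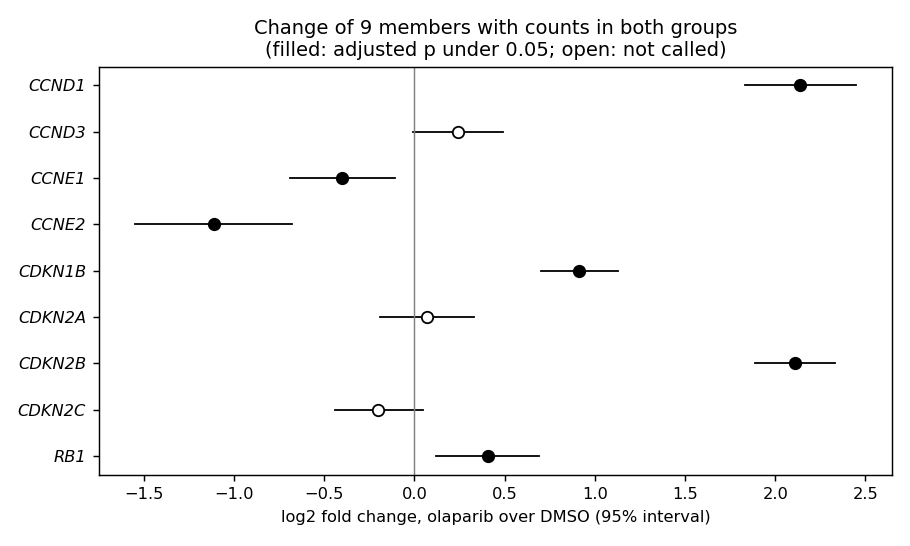
Log2 fold change, olaparib over DMSO, of the 9 genes with counts in both groups, with 95% intervals from edgeR's fit over 3 libraries per group and filled points where the adjusted p was under 0.05. CCND1 at 2.14 and CDKN2B at 2.11 lie farthest to the right, CCNE2 at -1.11 farthest to the left, and CDKN2A, CDKN2C and CCND3 have intervals that include 0. CCND2 is not drawn because its olaparib count was 0.

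The order of the 10 transcripts by level per kilobase of exon differed between the groups. In olaparib it ran CDKN2A (76.8 ± 2.09 CPM per kb), CDKN1B (34.6 ± 1.58), CDKN2B (30.3 ± 1.38), CCND1 (29.1 ± 1.98), CDKN2C (22.3 ± 1.29), CCND3 (21.1 ± 2.56), RB1 (14.9 ± 1.87), CCNE1 (12 ± 2.20), CCNE2 (1.21 ± 0.191) and CCND2 at 0. Within that order CDKN2B and CCND1, CDKN2C and CCND3, and RB1 and CCNE1 overlapped between libraries. In DMSO it ran CDKN2A (73.2 ± 10.3 CPM per kb), CDKN2C (25.5 ± 3.38), CDKN1B (18.4 ± 1.33), CCND3 (17.9 ± 1.80), CCNE1 (15.8 ± 0.924), RB1 (11.2 ± 1.67), CDKN2B (7.03 ± 0.452), CCND2 (6.81 ± 0.278), CCND1 (6.62 ± 1.40) and CCNE2 (2.61 ± 0.457). There CDKN1B, CCND3 and CCNE1 were not all separable by their ranges, nor were CDKN2B, CCND2 and CCND1. CDKN2A had the highest level and an E cyclin, CCNE2, the lowest level above 0 in both groups. These levels use the merged exon length of each gene, so a shift between isoforms of different length would also move them.

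The kinase partners of the D cyclins changed in opposite directions. CDK6 rose 4.17-fold, with 293, 340 and 347 CPM in olaparib libraries, against 96.4, 54.3 and 83.6 CPM in DMSO libraries (edgeR adjusted p = 5.43e-07). CDK4 fell 1.46-fold, with 107, 109 and 107 CPM in olaparib libraries, against 153, 177 and 141 CPM in DMSO libraries (edgeR adjusted p = 0.000476). Per kilobase of exon CDK6 took 43.9 ± 2.17% of the CDK4 and CDK6 sum in olaparib and 11.6 ± 3.66% in DMSO. The sums themselves were 60.6 ± 2.56 CPM per kb in olaparib and 55.8 ± 4.41 CPM per kb in DMSO, with overlap.

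Of 47 further genes of G1 control, all of which were tested, 11 were higher, 24 were lower and 12 were not called in olaparib. That is 74.5% called, with a median log2 fold change of -0.30, beside 75.7% and -0.09 over all genes. CDC25A, the phosphatase that activates CDK2, had the smallest adjusted p of the genes in this list that fell, at 31.3 ± 5.04 CPM in olaparib and 218 ± 7.92 CPM in DMSO (6.97-fold). LIN52, a subunit of the DREAM complex, fell 2.83-fold. E2F2, an activating E2F, fell 2.19-fold and E2F1, another, fell 1.82-fold. AMBRA1, the ubiquitin ligase adaptor that targets D cyclins for degradation, fell 1.81-fold, and MAX, the partner of MYC, fell 1.78-fold. Among the genes that rose were FOXO1, a transcription factor known to act on CDKN1B (2.32-fold), FBXO4, an F-box protein (2.22-fold), CDK7, the CDK-activating kinase (1.96-fold), and SKP1, a subunit of SCF ubiquitin ligases (1.43-fold).

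Of 46 E2F target genes of DNA replication and S phase, all of which were tested, 8 were higher, 24 were lower and 14 were not called. Thus 69.6% were called, with a median log2 fold change of -0.49, beside 75.7% called (35.4% higher and 40.3% lower) and a median of -0.09 over all genes. The replication factors GINS1 (7.58-fold), PCNA (4.98-fold) and RPA2 (3.60-fold) fell. So did RRM1 (3.29-fold), an enzyme of nucleotide supply, and SLBP (4.11-fold), which binds histone mRNA. EZH2 (1.23-fold), a histone methyltransferase, and CDC6 (1.22-fold), a loader of the replicative helicase, rose. The EZH2 call was lost without olaparib replicate 2 or DMSO replicate 3 (adjusted p up to 0.0520 in edgeR), and the CDC6 call without olaparib replicate 1 (0.0572). MSH6 (2.08-fold), a gene of mismatch repair, and the helicase subunit MCM2 (1.82-fold) rose. MKI67, the proliferation marker, had 351, 560 and 520 CPM in olaparib libraries, against 366, 184 and 268 CPM in DMSO libraries. It was called higher (1.75-fold, edgeR adjusted p = 0.00825) although the groups overlapped, and not with no filter beyond 1 count (adjusted p = 0.105). The count of E2F targets called higher was 5 without olaparib replicate 2.

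**Figure D4:**
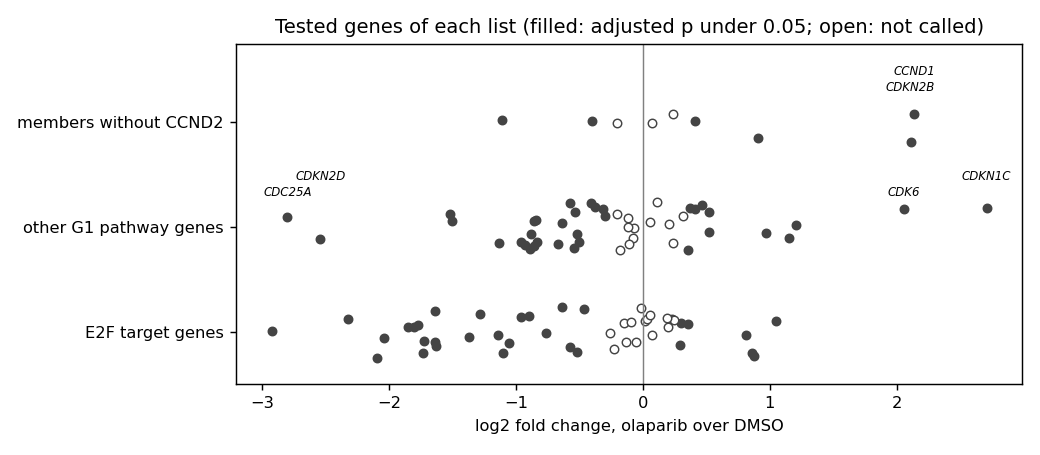
Log2 fold change, olaparib over DMSO (x axis), of the tested genes in each list (rows), with filled points where the adjusted p was under 0.05. The E2F targets and other G1 genes spread to both sides of 0 with more filled points on the lower side (24 lower in each list, against 8 and 11 higher), where over all genes 40.3% were lower and 35.4% higher. CCND2 is not drawn because its olaparib count was 0.

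The surroundings of CCND2 and CDKN2B were examined gene by gene. Among the coding genes tested within 1 Mb of CCND2, PARP11 and CRACR2A also had no count in any olaparib library. PARP11, an ADP-ribosyltransferase gene with its start at -400.3 kb from that of CCND2, held 1035 counts in DMSO (at least 260-fold lower in olaparib). CRACR2A, at -509 kb and chosen here after its values were seen, averaged 8.42 CPM in DMSO. The antisense gene CCND2-AS1 had no olaparib count and 35 DMSO counts (at least 8.80-fold lower), too few for the filter. FGF23, a coding neighbour that was not tested either, had no olaparib count and 16 DMSO counts. TIGAR, 34 kb downstream, was expressed in both groups, at 6.41 ± 0.690 CPM in olaparib and 10.8 ± 2.01 CPM in DMSO. It was called lower in olaparib (1.69-fold, edgeR adjusted p = 0.00333). Of 89 other coding genes tested within 5 Mb of CCND2, 23 were higher and 42 lower, with a median log2 fold change of -0.20. Over all genes 35.4% were higher and 40.3% lower, with a median of -0.09. Of the 89 genes, 4 had no count in any olaparib library. Around the other members such genes ran from 0 of 64 for CDKN2C to 8 of 83 for CCND3, so they were not particular to the CCND2 window.

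On the CDKN2B side, MTAP, the neighbour of CDKN2A that is often lost with it in tumours, was present in both groups, at 78.8 ± 2.68 CPM in olaparib and 70.0 ± 1.19 CPM in DMSO, and was not called. DMRTA1 rose 2.91-fold (edgeR adjusted p = 5.77e-05). The 21 other coding genes tested within 5 Mb had a median of 0.17, with 9 higher, 5 lower and 7 not called, beside the 35.4% higher and 40.3% lower over all genes. The window around CDKN2A gave the same counts and median. Around the members on other chromosomes the 5 Mb median ran from -0.56 for CCNE1 to -0.01 for CDKN2C. It was -0.02 around CCND1, -0.12 around CDKN1B, -0.30 around CCND3, -0.39 around CCNE2 and -0.45 around RB1. LTO1, which overlaps CCND1 on the other strand, was not called, at 34.0 ± 1.94 CPM in olaparib and at 29.9 ± 0.510 CPM in DMSO. LPAR6, which lies within RB1, had 46 counts in olaparib and 41 in DMSO and was not called. Of 38 listed neighbours, 33 were in the table and 28 were tested, with 4 higher, 9 lower and 15 not called. That is 46.4% called, beside 75.7% of all genes.

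The other members had neighbours of both kinds, called and not called. Beside CCND1, which rose, TPCN2 also rose (log2 fold change 0.66). BYSL and MED20, beside CCND3, fell (-0.81 and -0.66), and TAF8 there was not called. POP4, near CCNE1, fell (-0.56), and URI1 was not called. Near CDKN1B, DDX47 rose (1.51) at a low level, and APOLD1 was not called. TTC39A and RNF11, near CDKN2C, fell (-1.47 and -0.51), and FAF1, which lies closer to it, was not called (0.19). MED4, near RB1, fell (-0.45), and ITM2B was not called.

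**Figure D5:**
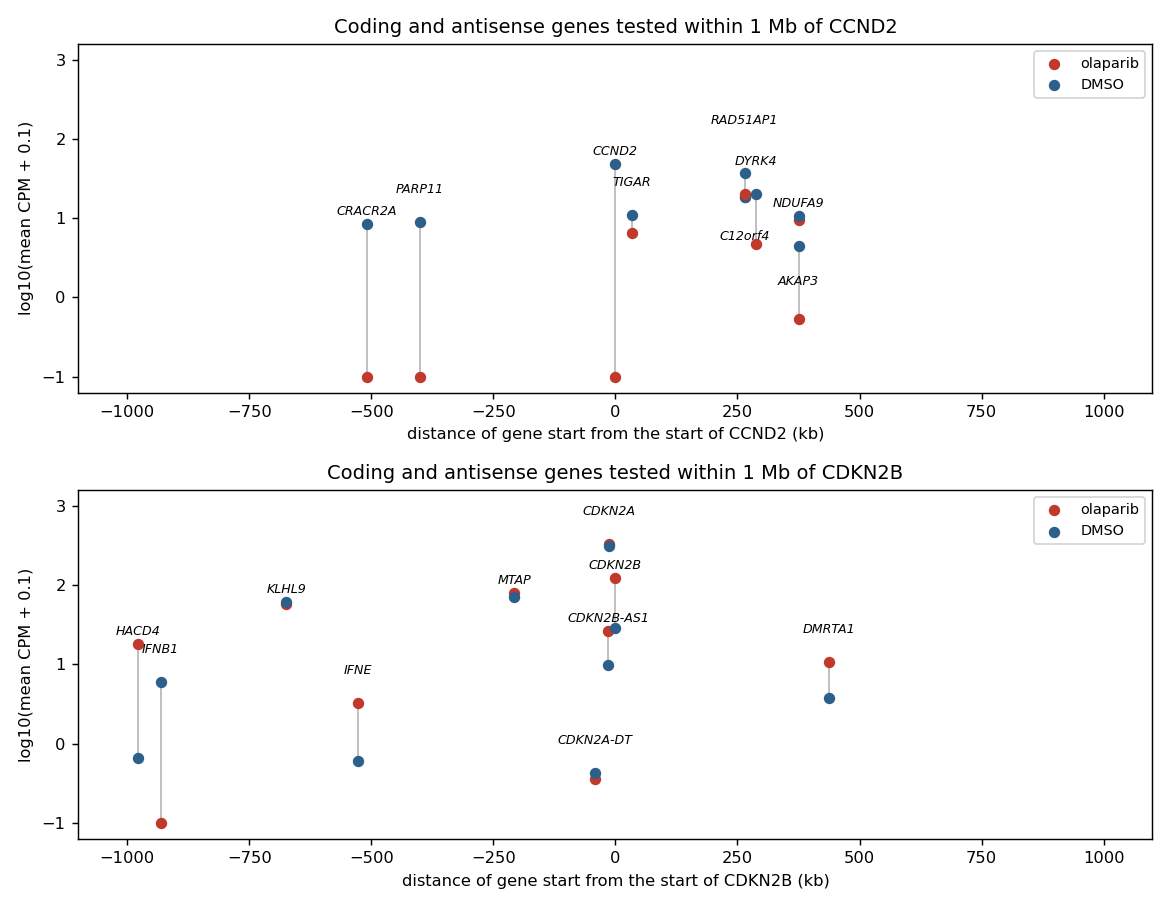
Mean level of coding and antisense genes tested within 1 Mb of CCND2 (top) and CDKN2B (bottom), as log10(mean CPM + 0.1), against the distance of their starts in kb, with olaparib in red and DMSO in blue. CCND2, PARP11 and CRACR2A drop to the floor of the axis in olaparib, and CDKN2B and CDKN2B-AS1 lie higher in olaparib while CDKN2A beside them is nearly equal in both. IFNB1, in the lower panel, is also at the floor in olaparib.

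SALL2 and KIF5C were among the 3 genes whose log2 CPM profile over the 6 libraries was nearest to that of CCND2. Their root mean square differences were 0.13 and 0.18 (log2 of CPM + 0.1). SALL2 averaged 0 CPM in olaparib and 45.6 CPM in DMSO, and KIF5C averaged 0 CPM in olaparib and 44.7 CPM in DMSO. With 2 groups, a profile of this kind holds little beyond the difference between them.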

How the data were processed

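RNA was sequenced in 3 olaparib and 3 DMSO libraries. The authors deposited raw read counts, 1 column per library, for 39396 gene symbols. Per the submitters' processing notes, fastp, STAR and hg38 were used. What program counted reads, on which strand and with which annotation was not given in the sources used here. More genes held 2 counts than 1 in every library, a pattern that counting each mate of a read pair would give, in which case counting floors are too low. Chi-square per degree of freedom between replicates was 4.74 to 68.6, above sampling noise. Positions and merged exon lengths came from GENCODE 29 on hg38, matched for 99.7% of symbols. Counts were tested in edgeR 4.0.16 (R 4.3.3): filterByExpr with default settings, TMM, robust quasi-likelihood fits, group as the only term, and Benjamini-Hochberg adjustment over all 17078 genes. Standard errors came from the F statistic. Alternatives used DESeq2 1.42.0, limma-voom (limma 3.58.1), other scalings and filters, a replicate block, halved counts and the loss of each library. Named genes were the members, listed partners and relatives, up to 6 per direction with the smallest adjusted p in the other lists, listed neighbours and the 3 profiles nearest to CCND2; some of these genes are not reported here. The members, the lists, the HEK293 markers and this rule were chosen with earlier results of these data known.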

Additional observations from a re-analysis of the deposited data

How the results depend on the processing

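All 14 other fits gave 6 to 7 called members, with 7 under DESeq2, limma-voom, other scalings, other filters and halved counts, and 6 of the 10 members kept direction and call in each fit. The leave-one-out ranges were 3 to 4 members higher, 2 to 3 lower and, for calls over all genes, 12337 to 13166. An adjusted p under 0.01 left 5 members and 4 higher E2F targets, against 8, which ran from 5 to 9 when a library was left out. By a threshold added after seeing the data, 4 members were called at 2-fold or more, 2 of them higher. Among genes that were not called, the sign turned when 1 library was left out: the log2 fold change ran from -0.03 to 0.17 for CDKN2A, from -0.31 to 0.06 for CDKN1A, from -0.17 to 0.01 for INTS8 and from -0.17 to 0.05 for TP53INP1. The cause was not tested. Same-numbered libraries of the 2 groups did not deviate together (r = -0.16, -0.12 and -0.01 for numbers 1, 2 and 3). Such weak values from 3 libraries per group cannot show whether the libraries were paired by number. With the replicate block 7 members and 12426 genes were called, and CCND1 stood at 2.16 (log2). Depth limits CCND2 in olaparib to under 0.0343 CPM, a bound from counting error only.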
